A study of Homo sapiens with 16 samples.

Results

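The NF-κB genes described here are 40 named genes, which were followed as a group in Nalm6, a human cell line of B-cell precursor acute lymphoblastic leukaemia. They comprise the Rel-family subunits, the IκB inhibitors, regulators and kinases of the pathway, and well-known target genes. Each gene was read on its brightest probe set among those that the platform annotation assigns to a single gene, and 36 of the 40 had such a probe set, out of 18132 genes measured. CCL4 and SOD2 are annotated together with other genes, and TRAF2 and BIRC3 were not analysed here. Signals came from 16 Affymetrix PrimeView arrays, with 4 arrays in each of 4 groups, and are given as log2 RMA values. The groups were Nalm6 cells labelled as carrying active, overexpressed CASP1 and given prednisolone for 24 hours, the same CASP1-labelled cells untreated, control Nalm6 cells given prednisolone, and untreated control Nalm6 cells. Prednisolone is a synthetic glucocorticoid, and the sample labels spell the treatment "predisone". How CASP1 was introduced, what the control cells carry, whether a line is a single clone and which dose was used: none of this is given in the sources used here. The study concerns CASP1, an inflammatory caspase, and resistance of leukaemia cells to glucocorticoids.

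NF-κB is a family of dimeric transcription factors that IκB proteins hold inactive in the cytoplasm. Signals from cytokine, Toll-like and antigen receptors activate the IκB kinases, which mark IκB for degradation, and the freed dimers enter the nucleus and switch on target genes, among them the genes of their own inhibitors. In the immune system the glucocorticoid receptor is known to oppose NF-κB, and the IκB gene NFKBIA is a known glucocorticoid-induced gene in lymphocytes.

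Before the results, 3 facts about the arrays are needed. CASP1 signal was lower on the arrays labelled CASP1, at 5.69 ± 0.25 in untreated CASP1-labelled cells and 7.75 ± 0.15 in untreated control cells (SD, n = 4 each), so the direction between lines follows the labels and goes against this check. Replicate 1 of each group stood apart, because correlations over all probe sets were 0.9832 to 0.9927 for array pairs with a replicate 1 and 0.995 to 0.9973 for pairs among replicates 2 to 4. All 14 measured B-cell precursor markers were above the floor mark described below, and 3 of them fell with prednisolone in each line, 1 rose in control cells, and 4 were lower in CASP1-labelled cells at each treatment, with 1 higher in untreated cells. Above the mark, 2 of 13 T and NK cell markers, 1 of 10 monocyte markers, 1 of 6 stromal markers and 0 of 5 erythroid and megakaryocyte markers were found, and 1 T or NK cell marker fell with prednisolone in each line. CD3E and CD14, which define T cells and monocytes, were near the floor. The monocyte marker above it was LYZ, which fell with prednisolone in both lines and was higher in CASP1-labelled cells at both treatments. The mean signal of the 10 monocyte markers ranged over arrays from 3.40 to 3.53 in treated and 3.54 to 3.70 in untreated CASP1-labelled cells, and from 3.32 to 3.41 in treated and 3.46 to 3.61 in untreated control cells, and the part of these markers in the results was not tested. Bulk arrays on a common scale cannot tell fewer expressing cells from less RNA per cell.

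The promoter letters of 4 members are shown, those that moved with prednisolone in both lines and have a κB match in a listed window: NFKBIA and NFKBIZ, which rose, and TNFAIP3 and CD83, which fell. GADD45B and CD69 also rose in both lines, but the GADD45B window holds no match and CD69 has no listed promoter. RefSeq promoters of GRCh38.p14, each of 300 bases with 250 before the transcription start and 50 after it, were listed for 31 of the 36 members, in 50 windows. The 250 bases before the start are printed, 5′ to 3′ on the strand of the gene, and capitals mark matches to the κB consensus, the DNA motif that NF-κB binds. The NFKBIA window lies at chr14:35404750-35404999 on the minus strand. The NFKBIZ window, the first of 2 listed, lies at chr3:101827740-101827989 on the plus strand. The TNFAIP3 window lies at chr6:137867009-137867258 and the CD83 window, the second of 2 listed, at chr6:14117522-14117771, both on the plus strand.
NFKBIA: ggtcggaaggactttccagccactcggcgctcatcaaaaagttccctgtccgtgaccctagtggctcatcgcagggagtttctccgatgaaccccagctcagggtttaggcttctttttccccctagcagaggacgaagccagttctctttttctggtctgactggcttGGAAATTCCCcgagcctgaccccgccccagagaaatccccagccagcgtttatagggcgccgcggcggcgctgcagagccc
NFKBIZ: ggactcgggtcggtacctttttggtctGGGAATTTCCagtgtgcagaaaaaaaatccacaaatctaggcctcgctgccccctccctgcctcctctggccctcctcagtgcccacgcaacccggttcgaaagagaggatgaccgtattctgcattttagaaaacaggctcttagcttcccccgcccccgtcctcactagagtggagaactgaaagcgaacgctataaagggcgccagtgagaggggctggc
TNFAIP3: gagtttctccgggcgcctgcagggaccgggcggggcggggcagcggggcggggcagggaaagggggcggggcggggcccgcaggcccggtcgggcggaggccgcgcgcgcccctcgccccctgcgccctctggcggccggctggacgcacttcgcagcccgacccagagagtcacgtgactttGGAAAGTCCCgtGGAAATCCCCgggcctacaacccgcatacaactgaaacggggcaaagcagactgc
CD83: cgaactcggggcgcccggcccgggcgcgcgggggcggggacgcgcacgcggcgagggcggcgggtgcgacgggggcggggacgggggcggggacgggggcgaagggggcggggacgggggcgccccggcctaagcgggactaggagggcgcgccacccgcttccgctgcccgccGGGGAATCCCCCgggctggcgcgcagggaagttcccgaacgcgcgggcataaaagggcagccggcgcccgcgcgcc

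The NFKBIA match GGAAATTCCC lies at bases -81 to -72 from the start, and the printed NFKBIZ match GGGAATTTCC at -223 to -214. The other listed NFKBIZ window, not printed, holds GGGGTTTCCC at -239 to -230 from its own start. TNFAIP3 holds GGAAAGTCCC at -67 to -58 and GGAAATCCCC at -55 to -46, and CD83 holds 3 overlapping matches between -76 and -65. The consensus, searched on both strands, was matched in 42% of member windows (21 of 50, in 16 genes) and in 5.91% of all 35116 promoter windows, in a group of genes put together for their link to NF-κB. Overlapping windows of LTB and of MAP3K8 share a single match, which counts in each of them. The full glucocorticoid response element consensus was matched in 0 member windows and in 0.39% of all windows. The short receptor motif AGAACA, searched on both strands, was found in 2 member windows, both of TRAF1, or 4%, and in 14.8% of all windows. TNFAIP8, which fell with prednisolone in control cells, has no κB match in its 3 listed windows, and these searches cover only the 300 bases of each window.

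Most cytokine and costimulatory members had signals in the range of genes that belong to other tissues. A member was marked as near the floor where the highest of its 4 group means was under 5.32, the 90th percentile of 49 measured genes of other tissues such as liver and pancreas. By this mark 15 of the 36 members were near the floor and 21 were above it. Near-floor members included the cytokine genes TNF, IL6, LTA and EBI3, the chemokine gene CCL3, the costimulatory genes CD40, CD80 and CD86, the kinases MAP3K8 and MAP3K14, the subunit NFKB2, TRAF1, TNFAIP2, PTGS2 and PLEK. With the median of all probe sets, 4.89, as the mark, LTA alone moved above it. LTB, which encodes a membrane-bound partner of lymphotoxin, was the cytokine member above the floor, with group means from 6.73 to 6.98 and no call in any of the 5 comparisons. Between treated lines 1 of its 2 probe sets was called higher in CASP1-labelled cells, and with both averaged LTB was called there (0.31, adjusted p = 0.019).

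**Figure D1:**
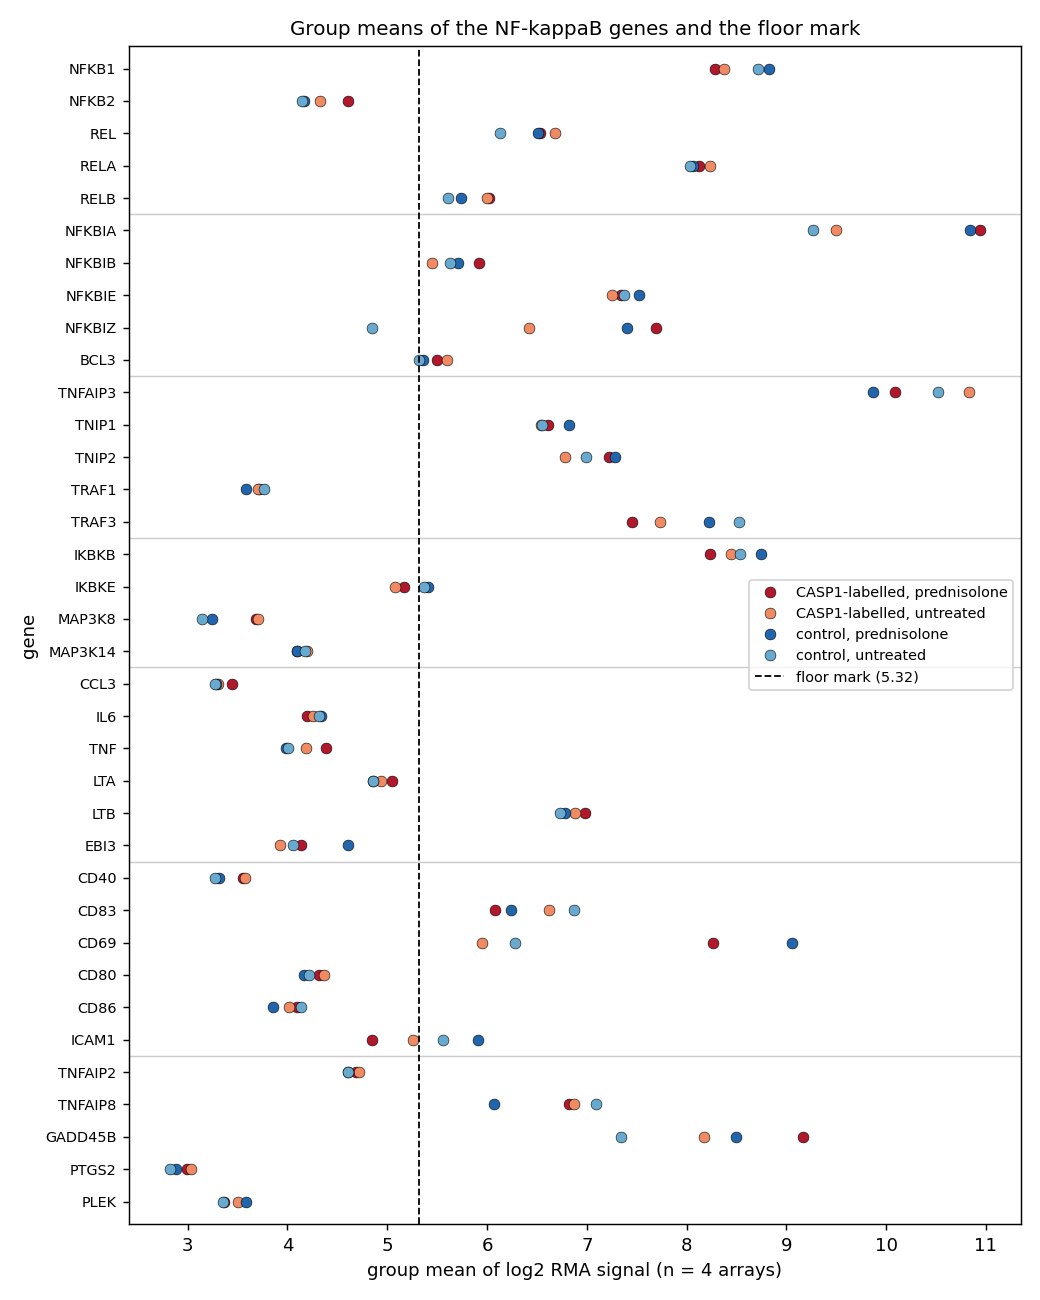
Group means of log2 RMA signal (horizontal axis, n = 4 arrays) for the 36 measured NF-κB genes, with grey lines between roles and a dashed line at the floor mark of 5.32. The 15 genes with all 4 points left of the line are near the floor, and CD69, NFKBIZ, NFKBIA and GADD45B have the widest spread between groups.

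Prednisolone moved 9 members in at least 1 line, 6 of them the same way in both. The share of all genes called the same way in both lines was not counted, so this number has no background. NFKBIA, NFKBIZ, CD69 and GADD45B rose and TNFAIP3 and CD83 fell in CASP1-labelled and in control cells, and these 2 comparisons share no arrays. In limma's test with Benjamini-Hochberg adjustment over all genes, called here at an adjusted p under 0.05, 7 of 36 members were called in CASP1-labelled cells, 5 higher and 2 lower, against 6.34% of all genes (2.99% higher and 3.35% lower). In control cells 8 members were called, 5 higher and 3 lower, against 14.2% of all genes (5.73% higher and 8.43% lower). Every one of these calls had treated and untreated arrays that did not overlap, as did calls for 5.75% of all genes in CASP1-labelled and 13.2% in control cells. Among genes above the floor mark the backgrounds were 11% in CASP1-labelled and 24.8% in control cells, and 7 of the 21 members above it were called in each line. The median log2 difference of the members was 0 in CASP1-labelled and 0.04 in control cells, beside 0.02 and -0.01 over all genes. The labels do not say that the 4 arrays of a group came from separate cultures, so each p-value reflects the spread among these arrays, which may be technical.

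**Figure D2:**
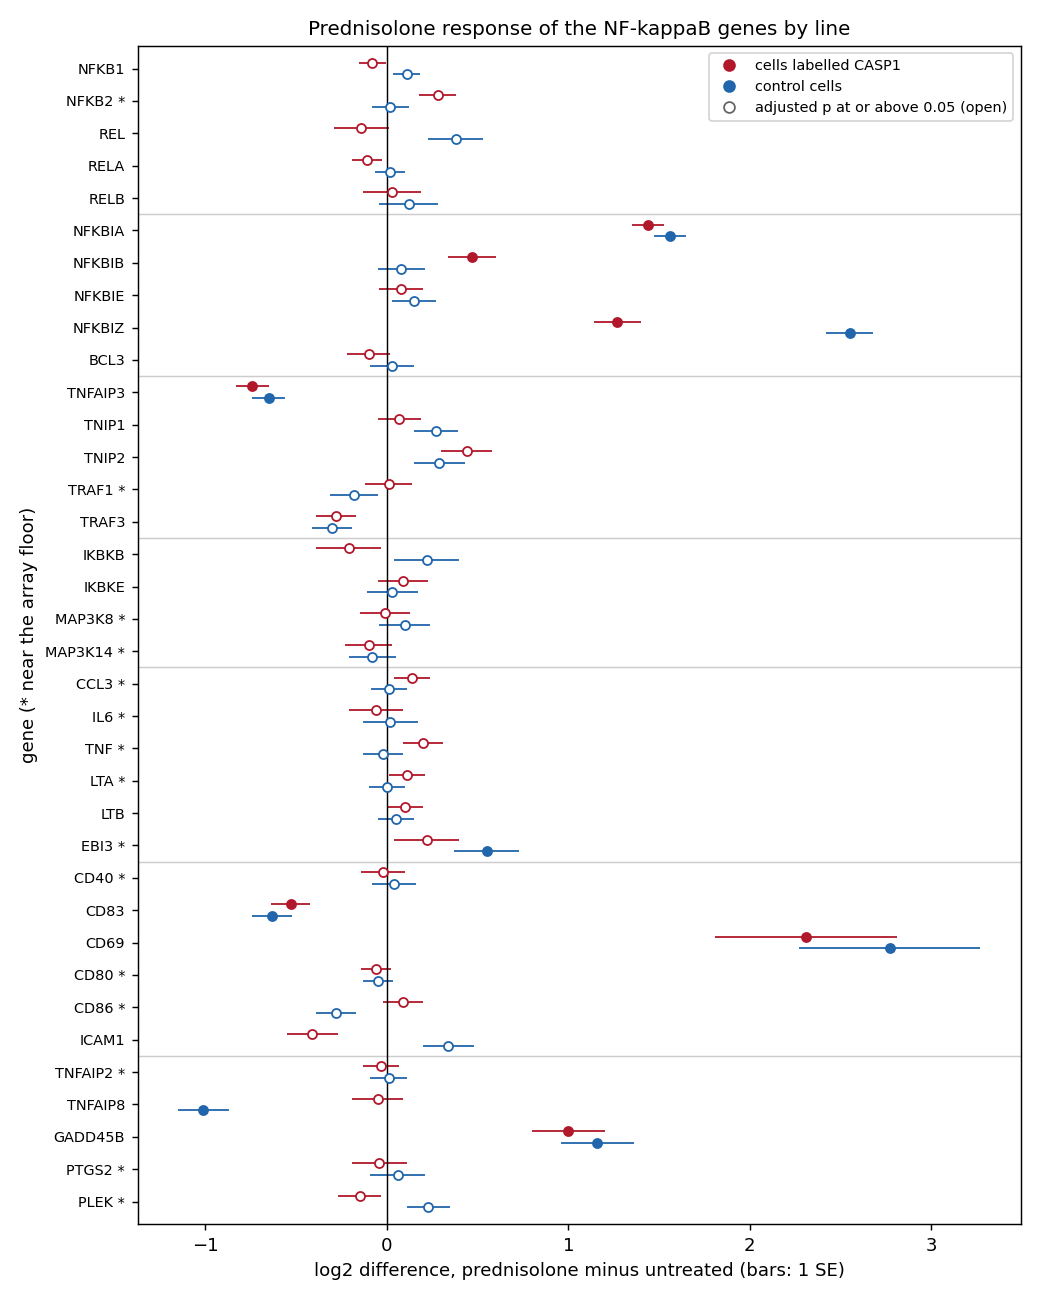
Log2 difference between prednisolone and untreated arrays (horizontal axis, bars 1 SE) for each of the 36 members, in CASP1-labelled and in control cells, with filled points for an adjusted p under 0.05 and stars for genes near the floor. NFKBIA, NFKBIZ, CD69 and GADD45B lie to the right and TNFAIP3 and CD83 to the left in both lines, while TNFAIP8 is to the left in control cells alone.

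The Rel-family subunits had no call for prednisolone in either line, with 0 of 5 called by limma and 1 of 5 at an unadjusted p under 0.05 in each. Over all genes 6.34% in CASP1-labelled and 14.2% in control cells were called, and 3211 and 4273 of 18132 had an unadjusted p under 0.05. RELA, the main activating subunit of the canonical pathway, had signals of 8.09, 7.91, 8.28 and 8.18 in treated and 8.18, 8.29, 8.17 and 8.27 in untreated CASP1-labelled cells. Its signals were 8, 8.06, 8.09 and 8.07 in treated and 7.95, 8.06, 8.12 and 8 in untreated control cells. Treated and untreated arrays overlapped in both lines, and the 95% intervals of the log2 difference were -0.29 to 0.07 in CASP1-labelled and -0.15 to 0.20 in control cells. For NFKB1, which encodes the precursor of a DNA-binding partner of RELA, the intervals were -0.24 to 0.08 in CASP1-labelled and -0.05 to 0.27 in control cells. REL, the subunit most used in B cells, had a difference of -0.14 (95% interval -0.47 to 0.18) in CASP1-labelled and of 0.38 (0.06 to 0.70, adjusted p = 0.12) in control cells. The 4 treated and 4 untreated control arrays did not overlap for REL, and its call in control cells appeared with only those groups in the fit (adjusted p = 0.0068), without treated CASP1-labelled replicate 1 (adjusted p = 0.044) and without replicate 1 of all 4 groups (0.40, adjusted p = 0.029). NFKB2, the non-canonical precursor, had 4.92, 4.52, 4.43 and 4.58 in treated and 4.13, 4.38, 4.38 and 4.42 in untreated CASP1-labelled cells, near the floor, without overlap and without a call (0.28, 95% interval 0.07 to 0.49, adjusted p = 0.13). In control cells NFKB2 had 4.11, 4.25, 4.20 and 4.10 with prednisolone and 4.11, 4.15, 4.26 and 4.06 without, which overlapped. RELB, the main subunit of the non-canonical pathway, had differences of 0.03 (-0.31 to 0.36) in CASP1-labelled and 0.12 (-0.21 to 0.46) in control cells.

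NFKBIA, the classical inhibitor that retains RELA dimers in the cytoplasm, rose in both lines. Its signals were 11.16, 10.70, 10.98 and 10.93 in treated CASP1-labelled cells, against 9.44, 9.64, 9.47 and 9.47 in untreated ones. In control cells they were 10.91, 10.78, 10.79 and 10.88 with prednisolone, against 9.25, 9.28, 9.30 and 9.26 without. Every treated array lay above every untreated one. The rise was 2.7-fold in CASP1-labelled cells (log2 1.44, SE 0.09, adjusted p = 1.1e-08) and 2.96-fold in control cells (log2 1.56, SE 0.09, adjusted p = 1.6e-09). All 3 of its probe sets were called higher, by 1.38 to 1.54 in CASP1-labelled and 1.54 to 1.60 in control cells. The responses of the lines differed by -0.13 (adjusted p = 0.81).

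NFKBIZ, a nuclear IκB protein that works as a coactivator of a subset of NF-κB targets, rose in both lines, while its untreated signals were unequal. Treated CASP1-labelled arrays had 7.48, 7.57, 8 and 7.71, against 6.67, 6.27, 6.28 and 6.48 in untreated ones. Treated control arrays had 7.66, 7.24, 7.38 and 7.31, against 5.09, 4.80, 4.60 and 4.90 in untreated ones. Treated signals of the lines overlapped, whereas untreated signals did not, and the untreated control mean of 4.85 lay under the floor mark. The rise was 2.41-fold in CASP1-labelled cells (log2 1.27, SE 0.13, adjusted p = 6.5e-06) and 5.85-fold in control cells (log2 2.55, SE 0.13, adjusted p = 4.1e-10). The interaction, which is the response of CASP1-labelled cells minus that of control cells, was -1.28 (SE 0.19, adjusted p = 0.0031). It kept its call in every alternative run, including without replicate 1 of all 4 groups (-1.12, adjusted p = 0.0015). NFKBIZ has 1 probe set, so no second one checks this difference. The rise in control cells, the interaction and the untreated difference between lines all use the untreated control signal under the floor mark, so their sizes are differences in signal and not exact folds in RNA.

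Of the other IκB members, NFKBIB was called in CASP1-labelled cells alone, NFKBIE and BCL3 in no comparison. NFKBIB, a second cytoplasmic inhibitor, had 6.18, 5.82, 5.65 and 6.03 in treated CASP1-labelled cells, against 5.53, 5.48, 5.33 and 5.47 in untreated ones, and was called 1.39-fold higher (log2 0.47, SE 0.13, adjusted p = 0.03). In control cells it had 5.99, 5.57, 5.47 and 5.82 with prednisolone, against 5.62, 5.78, 5.44 and 5.68 without, and these overlapped (0.08, adjusted p = 0.80). Only 1 of its 4 probe sets was called, and the difference between the lines in this response was 0.39 (adjusted p = 0.46). The NFKBIB call ended without treated replicate 1 (0.38, adjusted p = 0.076) or 4 (0.43, adjusted p = 0.087), and without untreated replicate 2 (0.48, adjusted p = 0.061), 3 (0.43, adjusted p = 0.095) or 4 (0.48, adjusted p = 0.067), all of CASP1-labelled cells. It also ended when its probe sets were averaged (0.20, adjusted p = 0.35), with only these groups in the fit (adjusted p = 0.061) and with quantile normalization (0.45, adjusted p = 0.051).

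NFKBIE, which encodes a further cytoplasmic IκB, had 6.93, 7.40, 7.42 and 7.58 in treated and 7.10, 7.43, 7.13 and 7.36 in untreated CASP1-labelled cells. In control cells it had 7.56, 7.56, 7.52 and 7.43 with prednisolone and 7.32, 7.37, 7.42 and 7.37 without. Its differences were 0.08 (95% interval -0.16 to 0.32) in CASP1-labelled and 0.15 (-0.09 to 0.39) in control cells, with no call. BCL3, a nuclear IκB protein that acts with NF-κB dimers on DNA, had group means of 5.32 to 5.60, the lowest at about the floor mark. It had no call in any of the 5 comparisons.

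Among the feedback regulators TNFAIP3 fell. It encodes a ubiquitin-editing enzyme that shuts down signalling to the IκB kinases and is itself a classical NF-κB target. Treated CASP1-labelled arrays had 10.17, 9.93, 10.13 and 10.12, against 10.89, 10.81, 10.75 and 10.84 in untreated ones. Treated control arrays had 9.78, 9.90, 9.90 and 9.90, against 10.24, 10.62, 10.63 and 10.59 in untreated ones. All treated arrays lay below all untreated arrays of their line. TNFAIP3 fell 1.67-fold in CASP1-labelled cells (log2 -0.74, SE 0.092, adjusted p = 4.2e-05) and 1.57-fold in control cells (log2 -0.65, SE 0.092, adjusted p = 6.5e-05), and both of its probe sets were called lower in each line. NFKBIA and TNFAIP3, both NF-κB feedback inhibitors, thus changed in opposite directions in both lines.

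TNIP1 and TNIP2, which encode binding partners of the TNFAIP3 protein, were not called for prednisolone. TNIP2 differed by 0.44 (adjusted p = 0.067) in CASP1-labelled and by 0.29 (adjusted p = 0.21) in control cells, and without replicate 1 of all 4 groups it was called higher in both, by 0.33 (adjusted p = 0.012) and 0.31 (adjusted p = 0.0084). TNIP1 differed by 0.07 and 0.27, in the same order, and was called in control cells without replicate 1 (0.23, adjusted p = 0.048). TRAF3, an adaptor that restrains the non-canonical pathway by targeting the kinase NIK for degradation, differed by -0.28 in CASP1-labelled and -0.30 in control cells, with no call. In control cells 2 of its 3 probe sets were called lower, and TRAF3 was called there without replicate 1 (-0.38, adjusted p = 0.005) and with its probe sets averaged (-0.42, adjusted p = 0.0025). The 4 kinase members had no prednisolone call in either line, and 0 of 4 had an unadjusted p under 0.05. Of all 18132 genes, 3211 in CASP1-labelled and 4273 in control cells had an unadjusted p under 0.05, and 6.34% and 14.2% were called. The kinase members include IKBKB, a catalytic subunit of the IκB kinase, at -0.21 in CASP1-labelled and 0.22 in control cells.

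CD69, an early activation receptor of lymphocytes that keeps cells in tissue, had the largest rise of the surface members, and its replicate 1 was low in each group. Treated CASP1-labelled arrays had 7.37, 8.58, 8.49 and 8.58, against 5.06, 6.13, 6.34 and 6.25 in untreated ones. Treated control arrays had 8.24, 9.35, 9.32 and 9.32, against 4.24, 6.97, 6.97 and 6.95 in untreated ones. Treated and untreated arrays did not overlap in either line. CD69 rose 4.96-fold in CASP1-labelled cells (log2 2.31, SE 0.50, adjusted p = 0.0079) and 6.84-fold in control cells (log2 2.77, SE 0.50, adjusted p = 0.00066). Without replicate 1 of all 4 groups the rises were 2.31 (SE 0.069, adjusted p = 1.6e-10) and 2.37 (SE 0.069, 5.16-fold, adjusted p = 5.2e-11), and without untreated control replicate 1 alone the rise in control cells was 2.09 (adjusted p = 0.00031). With the mean of its 3 probe sets CD69 rose by 1.30 in CASP1-labelled and 1.82 in control cells. Only 1 of the 3 lay above the floor mark. All 3 were called higher in control cells, while in CASP1-labelled cells 2 were called higher and 1 was not called.

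CD83, a surface protein of activated B cells and dendritic cells, fell. Treated CASP1-labelled arrays had 5.82, 6.30, 5.99 and 6.23, against 6.64, 6.50, 6.58 and 6.74 in untreated ones. Treated control arrays had 6.41, 6.27, 6.18 and 6.11, against 7.02, 6.84, 6.73 and 6.89 in untreated ones. The groups did not overlap in either line, and CD83 fell 1.44-fold in CASP1-labelled (log2 -0.53, SE 0.11, adjusted p = 0.0052) and 1.54-fold in control cells (log2 -0.63, SE 0.11, adjusted p = 0.00047). So CD69 and CD83, both activation markers and both used as NF-κB targets, changed in opposite directions. ICAM1, an adhesion molecule that binds leukocyte integrins, was not called in either line, at -0.41 (adjusted p = 0.11) in CASP1-labelled and 0.34 (adjusted p = 0.14) in control cells. With the probe sets of ICAM1 averaged, it was called higher in control cells (0.38, adjusted p = 0.0018).

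GADD45B, a stress sensor that restrains JNK signalling downstream of NF-κB, rose in both lines. Treated CASP1-labelled arrays had 9.17, 8.87, 9.43 and 9.22, against 7.79, 8.25, 8.26 and 8.37 in untreated ones. Treated control arrays had 9.03, 8.44, 8.28 and 8.23, against 7.94, 7.21, 6.94 and 7.25 in untreated ones. The groups did not overlap, and GADD45B rose 2-fold in CASP1-labelled (log2 1, SE 0.20, adjusted p = 0.005) and 2.23-fold in control cells (log2 1.16, SE 0.20, adjusted p = 0.00054). Of its 4 probe sets, 2 were called higher and 2 were not called in each line, and with their mean the rises were 0.66 in CASP1-labelled and 0.53 in control cells.

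TNFAIP8, which encodes a TNF-induced protein that opposes apoptosis, fell in control cells. It had 7.12, 6.71, 6.62 and 6.81 in treated CASP1-labelled cells, against 7.18, 6.77, 6.78 and 6.74 in untreated ones, and these overlapped. In control cells it had 6.29, 6.08, 5.89 and 6.03 with prednisolone, against 7.31, 7.20, 6.75 and 7.08 without, with no overlap. The log2 difference was -0.05 (SE 0.14, adjusted p = 0.91) in CASP1-labelled cells and -1.01 (SE 0.14, 2.02-fold, adjusted p = 4.2e-05) in control cells. The interaction was 0.96 (SE 0.20, adjusted p = 0.023), and with NFKBIZ it was called among 2 of 36 members, against 0.888% of all genes (0.524% higher and 0.364% lower). Both TNFAIP8 probe sets were called lower in control cells, while the interaction was called on 1 of the 2. The TNFAIP8 interaction missed the threshold without untreated CASP1-labelled replicate 2 (0.93, adjusted p = 0.058), 3 (0.93, adjusted p = 0.059) or 4 (0.92, adjusted p = 0.06), treated control replicate 3 (0.90, adjusted p = 0.064) or 4 (0.95, adjusted p = 0.056), and untreated control replicate 2 (0.92, adjusted p = 0.058) or 4 (0.96, adjusted p = 0.052). Without replicate 1 of all 4 groups it was called (0.96, adjusted p = 0.0026).

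EBI3, the shared subunit of interleukins 27 and 35, was the remaining prednisolone call, near the floor. It had 4.12, 4, 4.27 and 4.19 in treated CASP1-labelled cells, against 3.91, 4.17, 3.74 and 3.89 in untreated ones. In control cells it had 5.29, 4.26, 4.49 and 4.40 with prednisolone, against 3.68, 4.24, 4.25 and 4.04 without. The control groups were separated by 4.26 against 4.25 and replicate 1 carried the widest gap, with a log2 difference of 0.55 (SE 0.18, adjusted p = 0.048). That value was 0.33 (adjusted p = 0.13) without treated control replicate 1, 0.43 (adjusted p = 0.16) without untreated control replicate 1 and 0.20 (adjusted p = 0.27) without replicate 1 of all 4 groups. EBI3 also missed the threshold without treated control replicate 3 (0.59), without untreated control replicate 2 (0.62), 3 (0.62) or 4 (0.55), and without any single CASP1-labelled array except treated replicate 1 (0.55 each, adjusted p = 0.051 to 0.061).

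**Figure D3:**
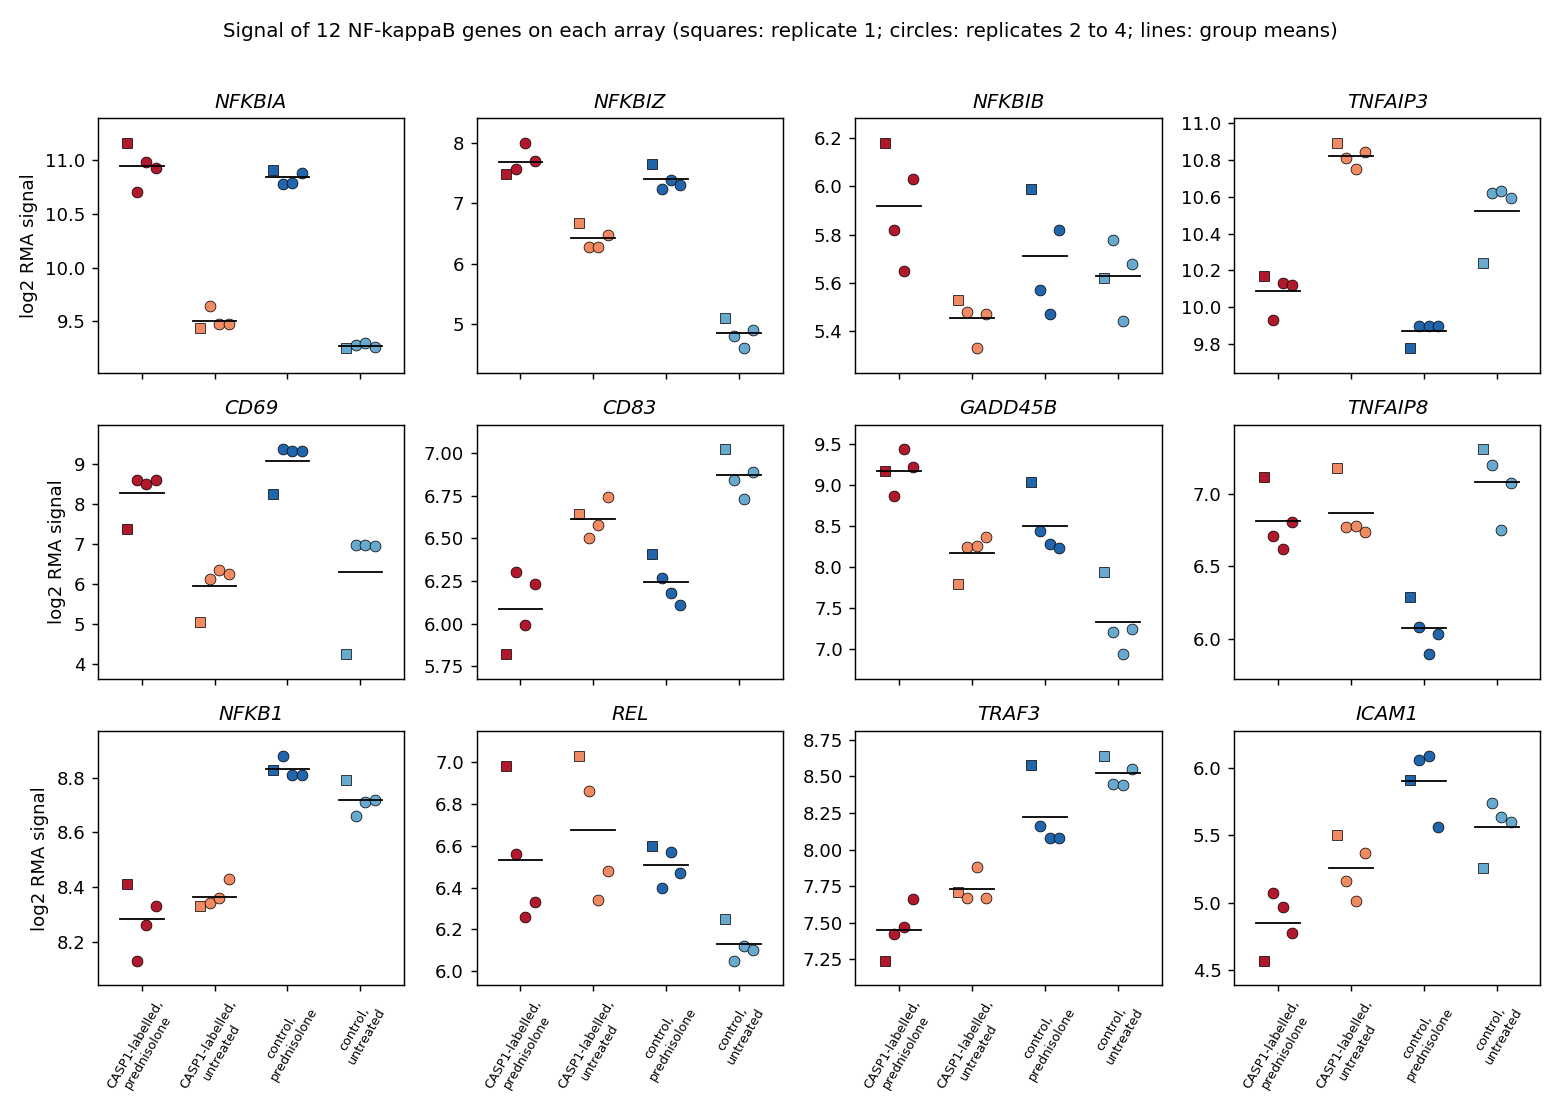
Log2 RMA signal (vertical axes, scaled per gene) of 12 members on each of the 16 arrays, in CASP1-labelled cells with prednisolone and untreated and in control cells with prednisolone and untreated. Squares are replicate 1, circles replicates 2 to 4 and lines group means. Treated NFKBIA arrays sit at 10.70 and above and untreated ones at 9.64 and below, and the CD69 squares lie below the circles in each group.

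Between the lines, 7 members differed in untreated cells and 8 in treated cells, with 4 called the same way in both. The share of all genes called the same way at both treatments was not counted. NFKB1 and TRAF3 were lower and MAP3K8 and GADD45B higher in CASP1-labelled cells at both treatments. These 2 comparisons share no arrays with each other but do share arrays with the prednisolone comparisons. All of these tests use the same estimate of each gene's spread. With prednisolone 5 members were called higher and 3 lower, beside 16.4% of all genes called (7.88% higher and 8.52% lower), and untreated 5 were higher and 2 lower, beside 14.1% of all genes (5.87% higher and 8.2% lower). Lines did not overlap for 7 of the treated and 5 of the untreated calls, and for 14.2% and 13.1% of all genes, called and not overlapping, in the same order. The members' share, 22.2% treated and 19.4% untreated, lies near that of all genes. The median log2 difference of the members was 0.11 in treated and 0.05 in untreated cells, beside 0.04 and 0.01 over all genes. Without replicate 1 of all 4 groups the untreated count was 12, with 7 higher and 5 lower. The count of all genes called between untreated lines also rose without replicate 1, from 2552 to 3876 of 18132. Directions follow the labels, which CASP1 signal goes against.

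**Figure D4:**
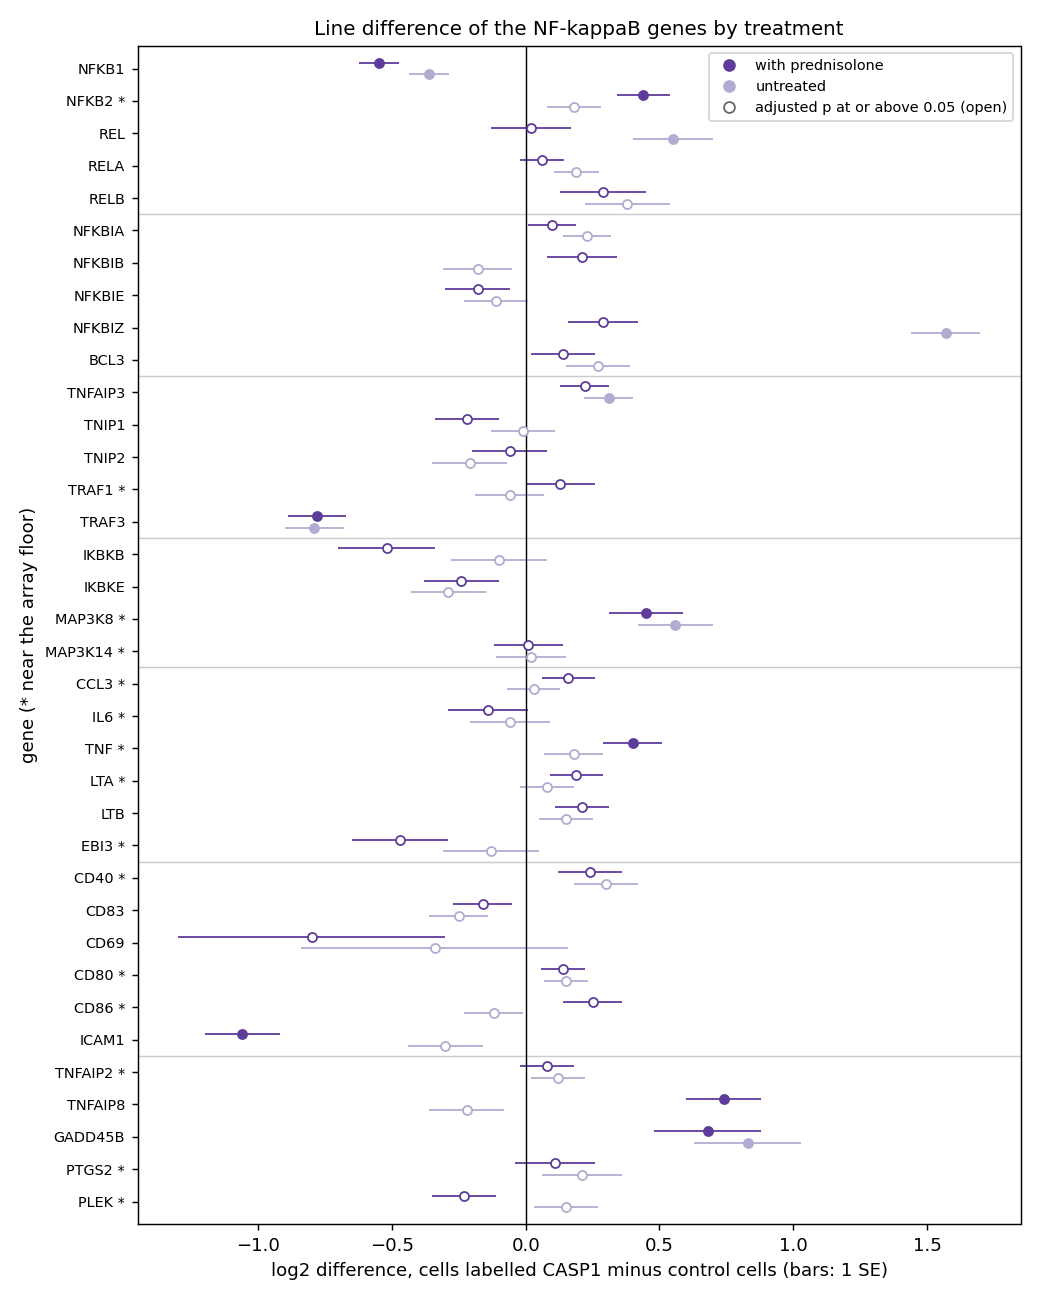
Log2 difference between CASP1-labelled and control cells (horizontal axis, bars 1 SE) for each of the 36 members, with prednisolone and untreated, with filled points for an adjusted p under 0.05 and stars for genes near the floor. NFKB1 and TRAF3 lie to the left at both treatments, NFKBIZ is at 1.57 in untreated and 0.29 in treated cells, and ICAM1 is at -1.06 in treated cells.

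NFKB1 was lower in CASP1-labelled cells. With prednisolone its signals were 8.41, 8.13, 8.26 and 8.33 in CASP1-labelled and 8.83, 8.88, 8.81 and 8.81 in control cells, and untreated they were 8.33, 8.34, 8.36 and 8.43 in CASP1-labelled and 8.79, 8.66, 8.71 and 8.72 in control cells. The lines did not overlap at either treatment. The log2 difference was -0.55 in treated (SE 0.075, 1.46-fold, adjusted p = 6.6e-05) and -0.36 in untreated cells (SE 0.075, 1.28-fold, adjusted p = 0.0034).

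REL ran the other way in untreated cells, with 7.03, 6.86, 6.34 and 6.48 in CASP1-labelled and 6.25, 6.05, 6.12 and 6.10 in control cells. The lines did not overlap, and REL was higher in CASP1-labelled cells by 0.55 (SE 0.15, 1.46-fold, adjusted p = 0.021), with both probe sets called. In treated cells it had 6.98, 6.56, 6.26 and 6.33 in CASP1-labelled and 6.60, 6.40, 6.57 and 6.47 in control cells, which overlapped (0.02, adjusted p = 0.95). The REL call missed the threshold without untreated CASP1-labelled replicate 1 (0.43, adjusted p = 0.08) or 2 (0.49, adjusted p = 0.07), or untreated control replicate 2 (0.52, adjusted p = 0.059) or 4 (0.54, adjusted p = 0.053), and was kept without replicate 1 of all 4 groups (0.47, adjusted p = 0.011). RELB had 6.58, 5.77, 5.82 and 5.93 in treated CASP1-labelled and 5.83, 5.88, 5.64 and 5.60 in treated control cells. Untreated, RELB had 6.40, 5.90, 5.83 and 5.86 in CASP1-labelled and 5.74, 5.46, 5.64 and 5.61 in control cells. RELB was not called (0.29 and 0.38, adjusted p = 0.26 and 0.13), though untreated cells were called without replicate 1 of all 4 groups (0.29, adjusted p = 0.027). NFKB2, near the floor, was higher in treated CASP1-labelled than in treated control cells by 0.44 (SE 0.10, adjusted p = 0.0055), without overlap, and differed by 0.18 (adjusted p = 0.30) in untreated cells. RELA was not called between the lines, at 0.06 in treated (adjusted p = 0.70) and 0.19 in untreated cells (95% interval 0.02 to 0.37, adjusted p = 0.15). The untreated lines did not overlap for RELA, and the lowest adjusted p among the alternative fits of that difference was 0.045.

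NFKBIZ was 2.98-fold higher in untreated CASP1-labelled cells (log2 1.57, SE 0.13, adjusted p = 5.7e-07). In treated cells the difference was 0.29 (adjusted p = 0.16), and 0.45 with adjusted p = 0.0097 without replicate 1 of all 4 groups. The untreated control arrays, under the floor mark, enter this comparison and also the prednisolone response of control cells. TNFAIP3 was higher in untreated CASP1-labelled cells by 0.31 (SE 0.092, adjusted p = 0.031), and in treated cells the difference was 0.22 (adjusted p = 0.12). The untreated TNFAIP3 call ended without replicate 1 of all 4 groups (0.19, adjusted p = 0.07), without untreated CASP1-labelled replicate 1 (0.29, adjusted p = 0.08), 2 (0.31, adjusted p = 0.06) or 4 (0.30, adjusted p = 0.068), without untreated control replicate 1 (0.22, adjusted p = 0.096), and with only these groups in the fit (adjusted p = 0.061). NFKBIA was not called between the lines, at 0.10 in treated and 0.23 in untreated cells (adjusted p = 0.52 and 0.11).

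TRAF3 was lower in CASP1-labelled cells at both treatments. Treated CASP1-labelled arrays had 7.24, 7.42, 7.47 and 7.66, and treated control arrays had 8.58, 8.16, 8.08 and 8.08. Untreated arrays had 7.71, 7.67, 7.88 and 7.67 in CASP1-labelled and 8.64, 8.45, 8.44 and 8.55 in control cells. No array of one line reached the other, with log2 differences of -0.78 in treated (SE 0.11, 1.71-fold, adjusted p = 0.00013) and -0.79 in untreated cells (SE 0.11, 1.73-fold, adjusted p = 0.00012). Of the 3 TRAF3 probe sets, 1 was called lower in treated and 2 in untreated cells, and with their mean the treated difference was -0.35 (adjusted p = 0.011).

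MAP3K8, a kinase that couples NF-κB precursor signalling to the ERK pathway, was near the floor. It had 3.54, 3.75, 3.69 and 3.75 in treated CASP1-labelled and 3.06, 3.27, 3.11 and 3.51 in treated control cells, and 3.31, 3.95, 3.64 and 3.89 in untreated CASP1-labelled and 2.95, 3.20, 3.35 and 3.06 in untreated control cells. It was higher in CASP1-labelled cells by 0.45 in treated (adjusted p = 0.03) and 0.56 in untreated cells (adjusted p = 0.0089), and the untreated lines overlapped. The treated MAP3K8 call ended without CASP1-labelled replicate 2 (0.42), 3 (0.44) or 4 (0.42), without control replicate 1 (0.38), 2 (0.46) or 3 (0.40), and with quantile normalization (0.39), at adjusted p = 0.059 to 0.089. IKBKB was not called in treated cells (-0.52, adjusted p = 0.06), and its difference was -0.26 (adjusted p = 0.11) without treated CASP1-labelled replicate 1, the lowest array at 7.44, and -0.15 (adjusted p = 0.45) with its probe sets averaged. IKBKB was called with the 30% dimmest genes left out of the fit (adjusted p = 0.049) and without treated CASP1-labelled replicate 3 (-0.66, adjusted p = 0.023) or 4 (-0.64, adjusted p = 0.03).

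ICAM1 was lower in treated CASP1-labelled cells. Its signals were 4.57, 5.07, 4.97 and 4.78 in treated CASP1-labelled and 5.91, 6.06, 6.09 and 5.56 in treated control cells, and 5.50, 5.16, 5.01 and 5.37 in untreated CASP1-labelled and 5.26, 5.74, 5.64 and 5.60 in untreated control cells. Treated lines did not overlap and untreated lines did. The difference was -1.06 in treated (SE 0.14, 2.08-fold, adjusted p = 6.4e-05), with all 3 probe sets called lower, and -0.30 in untreated cells (adjusted p = 0.21). The CASP1-labelled means, 4.85 treated and 5.26 untreated, and 2 of the 3 probe sets lay under the floor mark, so the treated fold is one of signal and not an exact fold in RNA. The interaction for ICAM1 was -0.75 (adjusted p = 0.11), so a difference between the 2 responses was not called, though it was with the mean of the probe sets (-0.48, adjusted p = 0.039). In untreated cells 1 of the 3 ICAM1 probe sets, under the floor mark, was called lower. ICAM1 was also called lower there without replicate 1 of all 4 groups (-0.48, adjusted p = 0.02). The lowest adjusted p among the alternative fits of that difference was 0.0026.

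CD69 was not called between the lines with 4 group means fitted to all arrays, at -0.80 in treated (adjusted p = 0.32) and -0.34 in untreated cells (adjusted p = 0.77). With replicate number also in the fit, CD69 was called between treated lines. Without replicate 1 of all 4 groups CD69 was lower in CASP1-labelled cells by -0.78 in treated (adjusted p = 4e-06) and -0.72 in untreated cells (adjusted p = 7.7e-06). TNFAIP8 was higher in treated CASP1-labelled cells by 0.74 (SE 0.14, adjusted p = 0.0011), with both probe sets called, and differed by -0.22 (adjusted p = 0.39) in untreated cells.

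GADD45B was higher in CASP1-labelled cells by 0.68 in treated (adjusted p = 0.029) and 0.83 in untreated cells (adjusted p = 0.0095), with control replicate 1 overlapping the CASP1-labelled arrays at each treatment. Without replicate 1 of all 4 groups these were 0.86 (adjusted p = 0.00027) and 1.16 (adjusted p = 2.3e-05). Of the 4 GADD45B probe sets, 2 were called higher in treated cells, 1 of them above the floor mark, and 1 in untreated cells. The treated GADD45B call ended without CASP1-labelled replicate 3 (0.59, adjusted p = 0.085) or 4 (0.66, adjusted p = 0.061) or control replicate 2 (0.66, adjusted p = 0.071), 3 (0.61, adjusted p = 0.087) or 4 (0.59, adjusted p = 0.092), and the untreated one ended when its probe sets were averaged (0.32, adjusted p = 0.097). TNF, the cytokine that is both trigger and target of NF-κB, had 4.62, 4.08, 4.53 and 4.34 in treated CASP1-labelled and 4, 3.99, 4.05 and 3.91 in treated control cells, near the floor. TNF was called higher by 0.40 (SE 0.11, adjusted p = 0.018), a call that ended without treated CASP1-labelled replicate 1 (0.33, adjusted p = 0.052) or 3 (0.36, adjusted p = 0.055), treated control replicate 4 (0.38, adjusted p = 0.053) or replicate 1 of all 4 groups (0.33, adjusted p = 0.057), and with only these groups in the fit (adjusted p = 0.054).

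Another 95 genes of the pathway were listed by role, as IκB kinase components and upstream kinases, adaptors, ubiquitin enzymes and brakes, receptors and further targets, and 92 were measured. Prednisolone called 3 of them higher and 4 lower in CASP1-labelled cells, and 10 higher and 4 lower in control cells. These are 7.61% and 15.2% of the list, near the 6.34% and 14.2% of all genes. All 7 calls in CASP1-labelled cells were in the list of further targets, where IL1B, which encodes interleukin 1 beta, fell by 1.09 in CASP1-labelled (adjusted p = 0.0031) and fell by 1.97 in control cells (adjusted p = 2.4e-06). IL1B was above the floor mark only in untreated control cells, at 7.18, with means of 4.21 in treated and 5.30 in untreated CASP1-labelled cells and 5.20 in treated control cells. TAP1, a peptide transporter of antigen presentation, rose by 0.64 (adjusted p = 1e-04) and by 1.06 (adjusted p = 1.2e-07), in the same order. In control cells 4 of 18 ubiquitin enzymes and brakes rose and 0 fell, where 5.73% of all genes rose and 8.43% fell, among them CYLD, a deubiquitinase that dampens NF-κB signalling, by 0.47 (adjusted p = 0.0038). TAB2, an adaptor of the kinase TAK1, rose by 0.33 (adjusted p = 0.019), and the receptor for BAFF, TNFRSF13C, by 0.59 (adjusted p = 0.0028) near the floor. Near the floor in control cells, the ubiquitin ligase gene PDLIM2 rose by 0.53 (adjusted p = 0.028) and the Toll-like receptor gene TLR10 fell by 0.66 (adjusted p = 0.00048). None of the 11 adaptors was called for prednisolone, while 1 in CASP1-labelled and 2 in control cells had an unadjusted p under 0.05. Among all 18132 genes 3211 and 4273 had an unadjusted p under 0.05, in the same order.

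Between the lines, 9 of the 92 were higher and 10 lower in treated CASP1-labelled cells, and 7 higher and 4 lower in untreated ones. These are 20.7% and 12% of the list, beside 16.4% and 14.1% of all genes. TNFRSF17, the BCMA receptor of late B cells, was higher by 1.08 in treated (adjusted p = 0.012) and 1.60 in untreated cells (adjusted p = 7e-04), and its control means, 4.39 treated and 4.19 untreated, lay under the floor mark. FAS, a death receptor, was higher by 1.03 (adjusted p = 0.02) and 1.10 (adjusted p = 0.014), in the same order, and RNF11, a partner of the TNFAIP3 complex, lower by -0.73 (adjusted p = 0.00039) and -0.50 (adjusted p = 0.0079). IER3, an early response gene, was higher in treated cells by 1.03 (adjusted p = 9.4e-06). TRAF6, the adaptor of Toll-like and interleukin 1 receptors, was lower in treated cells by -0.70 (adjusted p = 0.0064), and CHUK, the other catalytic IκB kinase, by -0.38 (adjusted p = 0.011). Also lower in treated cells were TAB3, an adaptor of TAK1, by -0.35 (adjusted p = 0.013) and N4BP1 by -0.34 (adjusted p = 0.01), and CD70, the ligand of CD27, was higher by 0.63 (adjusted p = 0.0048) over a control mean of 5.29, under the floor mark. In untreated cells the adaptor TRAF5 was lower by -0.71 (adjusted p = 0.02) and OTULIN, a deubiquitinase of linear chains, higher by 0.46 (adjusted p = 0.0021). IL1B was lower in untreated CASP1-labelled cells by -1.88 (adjusted p = 9.9e-06). The interaction was called by limma for 0 of the 92 genes, with 13 at an unadjusted p under 0.05. Of all genes 0.888% were called for it, and 1871 of 18132 had an unadjusted p under 0.05.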

How the data were processed

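Total RNA of 16 Nalm6 samples was measured on Affymetrix PrimeView arrays. The authors deposited signals per probe set on the log2 scale, made with RMA, per the submitters' processing notes, for 49395 probe sets, with array medians of 4.85 to 4.93. No software or version is given in the sources used here. Precision is limited by the number of arrays. The platform annotation gave 44988 probe sets a single gene, and the brightest over all arrays stood for that gene. All 18132 genes were fitted with limma 3.58.1 in R 4.3.3, with 4 group means, 12 residual degrees of freedom and eBayes without trend. Two-sided p-values were adjusted by Benjamini-Hochberg over all genes in each of 5 comparisons, and the adjusted p-values printed come from limma. A member's array values are given where it was called with groups that did not overlap, or where it is a subunit or classical IκB, and up to 2 called pathway genes per list and comparison are named. Members, lists and alternatives were chosen with earlier results of these data known.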

Additional observations from a re-analysis of the deposited data

Results flagged for a closer look

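In 15 of the 144 groups of 4 arrays, formed by 36 members in 4 groups, an array lay far from the other 3 by Dixon's test at the 95% level, or 10.4%, where chance gives about 1 in 20. Replicate 1 was the array in 12 of the 15. CD69 was low on replicate 1 in all 4 groups, at 7.37 in treated CASP1-labelled, 5.06 in untreated CASP1-labelled, 8.24 in treated control and 4.24 in untreated control cells. TNFAIP3 was low on replicate 1 of treated control (9.78) and untreated control cells (10.24), and TRAF3 was high on replicate 1 of treated control cells (8.58). In treated CASP1-labelled cells replicate 1 was low for IKBKE (4.65) and high for PTGS2 (3.47). In untreated CASP1-labelled cells it was low for NFKB2 (4.13) and high for RELB (6.40) and TNFAIP8 (7.18). The other 3 arrays were replicate 2 of untreated CASP1-labelled cells for NFKBIA (9.64), replicate 4 of treated CASP1-labelled cells for CD80 (4.14) and replicate 2 of untreated control cells for TNF (4.25).

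The prednisolone response differed between CASP1-labelled and control cells, by the test of the interaction, for NFKBIZ (-1.28) and TNFAIP8 (0.96). NFKBIZ has 1 probe set, and its untreated control mean of 4.85 lay under the floor mark. The TNFAIP8 interaction was called on 1 of 2 probe sets and in 9 of 16 fits that left out a single array.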

How the results depend on the processing

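Across the 32 called member results, 704 of 764 alternative fits kept the direction and the call, 60 lost the call and 0 changed direction, and 23 results kept their call in every alternative run. Of the 148 results not called, 20 were called in at least 1 alternative. The count of members called in untreated CASP1-labelled against control cells was 7, and 12 without replicate 1 of all 4 groups. Members called for the interaction numbered 2, and 1 to 2 when single arrays were left out. Over all genes, leaving out replicate 1 of all 4 groups gave 3969 calls for prednisolone in control cells (2568 with all arrays), 2161 in CASP1-labelled cells (1150), 3876 between untreated lines (2552) and 727 for the interaction (161). With only the groups of the comparison, all genes called for prednisolone in CASP1-labelled cells numbered 688, and the interaction had 96 to 268 calls with single arrays left out. Quantile normalization and centring on the 75th percentile moved the median difference of all genes by at most 0.0208 and 0.0401. With replicate number as a block, members called were 8 and 9 for prednisolone in CASP1-labelled and control cells, 10 and 8 between treated and untreated lines and 2 for the interaction, and all genes called for the interaction numbered 289. For the other comparisons the blocked counts over all genes are not given here, so those member counts have no background. The block added calls for TNIP2 in both lines, REL in control cells, RELB between untreated lines and IKBKB and CD69 between treated lines, and ended that of EBI3. Deviations of same-numbered arrays of different groups correlated at -0.116 to 0.507, with the 6 replicate 1 pairs at 0.191 to 0.507 and the lowest among replicate 4, so the numbers were not taken to pair samples. Of 16 arrays, 7 correlated best with their own number, 4 of them replicate 1. The cause of these changes was not tested. For genes near the array floor, the signal limits what a difference can show.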
